A study of Mus musculus with 144 samples.

Results

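The expression of 10 genes of the unfolded protein response and the integrated stress response was examined in primary mouse hepatocytes, liver parenchymal cells isolated from the animal and kept in culture. The genes were Atf4, Ddit3, Hspa5, Xbp1, Trib3, Asns, Chac1, Herpud1, Dnajb9 and Pdia4, chosen by symbol and matched to their Ensembl identifiers, and they make up 10 of the 55359 genes counted in the RNA-Seq data. The hepatocytes came from male mice aged 28 days of strain C57BL/6NCrl, labelled WT, or from the Pkm-delta-DRE strain, labelled PkmΔDRE, in which the core of a dioxin response element (DRE) in an intron of Pkm was deleted in the whole body. Cultures of either label received 10 nM of the dioxin TCDD, a ligand of the aryl hydrocarbon receptor (AHR), or the dimethyl sulfoxide vehicle, and were harvested at 9 times, which were 2, 4, 8 and 12 h on the first day and 24, 48, 72, 96 and 120 h thereafter. Each of the 36 combinations of label, treatment and hour holds 4 libraries. The labels do not say how many animals or isolations these libraries come from, so p-values measure the spread between libraries, which may be technical.

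The unfolded protein response is the answer of a cell to misfolded protein in the endoplasmic reticulum (ER). It runs through the sensors IRE1, which splices Xbp1 mRNA, ATF6, and PERK, a kinase of the translation factor eIF2alpha. Phosphorylated eIF2alpha lowers protein synthesis but favours translation of ATF4, and kinases that sense other stresses, such as lack of amino acids, feed into the same step, which is why this arm is named the integrated stress response. The liver secretes large amounts of plasma protein and depends on ER folding capacity. Among the genes studied, Hspa5 encodes BiP, the major ER chaperone, Dnajb9 its co-chaperone ERdj4, Pdia4 a protein disulfide isomerase, and Herpud1 a membrane protein of ER-associated degradation. Xbp1 and Atf4 encode the transcription factors of the IRE1 and PERK branches, and Ddit3 encodes CHOP, a factor linked to cell death under prolonged stress. Trib3, Asns and Chac1 are known targets of ATF4 and encode a pseudokinase, asparagine synthetase and a glutathione-degrading enzyme.

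Promoters of 4 of the genes are shown because they hold letters of an element known from these pathways. All 10 genes had an entry in the RefSeq promoter table of GRCm38.p6, and the 250 bases before the transcript start were searched on both strands. The ER stress response element, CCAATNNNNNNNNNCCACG, was found in Hspa5 alone among the 10 genes, 65 to 47 bases before the start, and in 0.113% of the 32851 promoter windows of the table. Its second form, the letters ATTGG, any base and CCACG, was found in Herpud1, 52 to 42 bases before the start, and in 0.0304% of the windows. The C/EBP-ATF response element, TGATGNAA, bound by ATF4 dimers, was found in Asns at 23 to 16 bases, in Chac1 at 193 to 186 bases and in Herpud1 upstream of its other match, and in 3.45% of the windows. Capitals mark these matches, which read in the reverse complement in Chac1 and for the second match in Herpud1, the one farther from the start.
Hspa5, chr2:34771840-34772089, plus strand: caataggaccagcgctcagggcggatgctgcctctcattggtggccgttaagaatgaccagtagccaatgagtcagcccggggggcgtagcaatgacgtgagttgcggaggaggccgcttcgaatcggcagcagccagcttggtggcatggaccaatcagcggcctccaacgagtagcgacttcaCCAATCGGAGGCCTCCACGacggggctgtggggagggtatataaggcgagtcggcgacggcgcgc
Herpud1, chr8:94386179-94386428, plus strand: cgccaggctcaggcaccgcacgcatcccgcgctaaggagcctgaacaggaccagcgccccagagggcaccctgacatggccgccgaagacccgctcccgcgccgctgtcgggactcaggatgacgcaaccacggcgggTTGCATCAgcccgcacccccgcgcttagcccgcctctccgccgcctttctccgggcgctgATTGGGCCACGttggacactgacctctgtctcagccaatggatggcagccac
Asns, chr6:7693210-7693459, minus strand: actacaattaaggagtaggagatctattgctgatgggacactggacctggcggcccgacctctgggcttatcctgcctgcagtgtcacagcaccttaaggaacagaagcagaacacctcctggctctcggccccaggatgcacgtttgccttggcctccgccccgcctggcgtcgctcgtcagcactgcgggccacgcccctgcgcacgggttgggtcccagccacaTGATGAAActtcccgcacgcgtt
Chac1, chr2:119350992-119351241, plus strand: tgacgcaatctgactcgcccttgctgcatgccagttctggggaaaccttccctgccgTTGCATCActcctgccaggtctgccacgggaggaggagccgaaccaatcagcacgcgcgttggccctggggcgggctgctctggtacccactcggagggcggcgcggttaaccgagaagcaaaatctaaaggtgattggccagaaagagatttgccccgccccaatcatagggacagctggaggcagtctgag
The core of the DRE, GCGTG, lay in the windows of 6 of the 10 genes (Atf4, Ddit3, Trib3, Asns, Chac1 and Herpud1) and in 28.2% of all windows. The XBP1 element TGACGTGG lay in none of the 10 and in 0.563% of the windows. A match describes letters only, and the binding of a factor was not measured.

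A library held between 13588848 and 30719161 counts assigned to genes (median 18011825), and levels are given as CPM, the counts of a gene scaled to the size of its library. The 7 hepatocyte markers followed were detected in every library, but their summed level fell with time in culture, from a median of 149641 CPM at 2 h to 8501 CPM at 120 h in vehicle-treated libraries labelled WT. Fewer hepatocytes and less RNA per hepatocyte cannot be told apart in bulk RNA. Pkm went against the genotype labels: at 12 h it was 41.4 ± 13.4 CPM with vehicle and 46.6 ± 28.9 with TCDD under label WT, and 47.7 ± 7.32 and 157 ± 51.8 under label PkmΔDRE (mean ± SD, n = 4 here and in all values of this form), so groups are named by their labels throughout. Libraries 21 (labelled WT, vehicle, 48 h) and 31 (labelled WT, vehicle, 96 h) held 3285 and 1717 CPM of Cyp1a1, the classical AHR target, whereas library 64 (labelled WT, TCDD, 72 h) held 29.2 CPM and library 40 (labelled WT, TCDD, 2 h) 1.15 CPM. In the groups labelled PkmΔDRE with vehicle, library 80 (4 h) held 11095 CPM of summed hepatocyte markers against at least 116671 in the other libraries of its group, and replicate 4 of 96 h held 104541 CPM against at most 15886, so each stood nearer to the hour of the other. Member calls for TCDD and summaries over libraries are also given without these 6 libraries, taken in sets. Comparisons between hours of vehicle used all vehicle libraries of a label for the estimate of spread. Their calls are not given without these libraries. The counts of Ddit3 are partial, because 10.9% of its exonic bases overlap other gene models and read pairs there were not assigned. Spliced and unspliced Xbp1 mRNA cannot be told apart in gene counts.

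Some of these genes differed between hours in the libraries labelled vehicle. Vehicle-treated libraries were compared across 4 steps (8 against 2 h, 24 against 8 h, 72 against 24 h and 120 against 72 h) in 1 fit per label, and a gene was called where its adjusted p was under 0.05 and its level differed by 1.5-fold or more. Under label WT, Hspa5, Dnajb9, Pdia4 and Xbp1 fell and Asns rose between 2 and 8 h. Against these 4 lower and 1 higher call of 10 members stand 16% of the 15862 genes tested called lower and 15.9% called higher. Markers of other cell types moved over the same steps: under label WT with vehicle the 5 endothelial markers summed to 144.7 to 280.6 CPM at 2 h and 39.4 to 68.8 CPM at 8 h, and the 4 cholangiocyte markers to 34.2 to 132.5 CPM at 2 h and 11.9 to 27.6 CPM at 8 h, then to 37.9 to 74.9 CPM at 24 h and 170.1 to 285.8 CPM at 72 h. The 5 stellate cell markers went from a median of 0.752 CPM at 2 h to 70.5 CPM at 120 h. Over all libraries Lrat and Des of this set reached at most 3.72 and 6.68 CPM. Col1a1, Col3a1 and Acta2 reached 134.5, 92.1 and 94.4 CPM. Under label PkmΔDRE the cholangiocyte markers ranged from 69.9 to 124.7 CPM at 2 h and 16.1 to 29.9 CPM at 8 h, then from 14.04 to 64.8 CPM at 24 h and 198.2 to 291.9 CPM at 72 h. Of the cholangiocyte markers, Epcam reached at most 6.68 CPM in any library, and Krt19, Krt7 and Sox9 reached 300.2, 52.25 and 135.7 CPM. The sums follow single genes and do not count cells. The part of these markers in the changes with time was not tested.

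**Figure D1:**
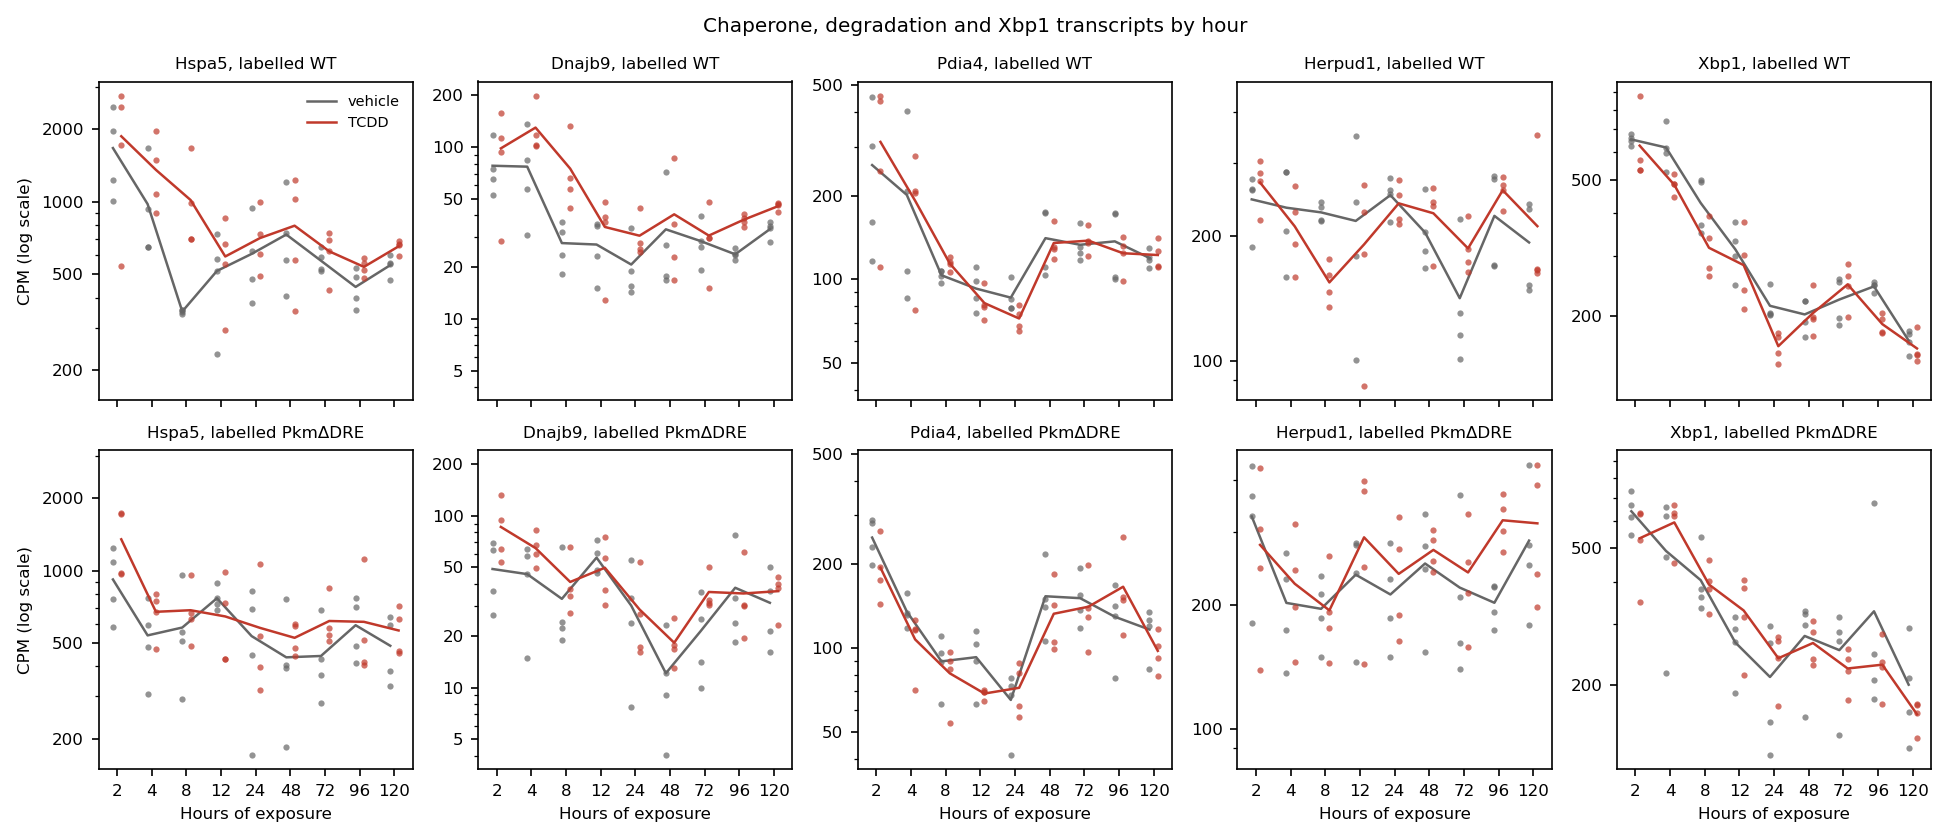
Level of Hspa5, Dnajb9, Pdia4, Herpud1 and Xbp1 (CPM, log axis) against hours of exposure, drawn at even steps, with libraries labelled WT above and labelled PkmΔDRE below. Points are libraries (4 per group), lines join group means, grey is vehicle and red TCDD. Hspa5 labelled WT with vehicle falls from a mean of 1674 CPM at 2 h to 350.2 CPM at 8 h.

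Hspa5 held 1964, 1012, 2482 and 1239 CPM in the 4 vehicle libraries labelled WT at 2 h and 348, 356, 342 and 354 CPM at 8 h. All libraries of the later hour lay below all of the earlier one, and their spread was narrow. The log2 fold change was -2.23 ± 0.32 (SE, edgeR adjusted p = 1.71e-06), a 4.70-fold lower level. Dnajb9 followed with 65.6, 52.6, 118.2 and 74.9 CPM at 2 h and 36.6, 32.1, 23.5 and 18.2 CPM at 8 h, again without overlap (log2 fold change -1.47 ± 0.38, edgeR adjusted p = 0.00286). Pdia4 varied widely at 2 h, from 116.6 to 453 CPM, and lay between 96.96 and 107.3 CPM at 8 h (-1.33 ± 0.36, edgeR adjusted p = 0.00425). Its call was lost without library 1, where it was highest, at a log2 fold change of -0.90. The transcription factor transcript Xbp1 fell less, from 654 ± 21.4 to 427 ± 79.5 CPM (-0.61 ± 0.16, edgeR adjusted p = 0.00273), and fell again from 8 to 24 h to 214 ± 23.1 CPM (-1.13 ± 0.16, edgeR adjusted p = 1.83e-06). Without library 2, 11 or 12, Xbp1 at 8 against 2 h stayed lower but missed the fold threshold.

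Asns went the other way between 2 and 8 h. Asns held 35.7, 68.8, 41.4 and 59.2 CPM at 2 h and 135.8, 157, 83.8 and 84.3 CPM at 8 h under label WT with vehicle. Every library at 8 h lay above every library at 2 h (log2 fold change 1.17 ± 0.36, edgeR adjusted p = 0.0102). Chac1 and Atf4 were called lower at 24 h than at 8 h, together with Xbp1. This makes 3 members called lower and none higher, where 12.3% of all genes were called lower and 16.9% higher. The median of all genes moved by 0.12 on the log2 scale over this step, and by 0.14 under label PkmΔDRE. Chac1 held 189.7, 155, 24.4 and 16.6 CPM at 8 h and 12.8, 13.5, 11.8 and 14.6 CPM at 24 h. The 8 h libraries split into a high and a low pair, and even the low pair lay above the 24 h libraries (-3.02 ± 0.65, edgeR adjusted p = 0.000624). Atf4 showed the same split, with 543, 536, 250 and 232 CPM at 8 h, and its lower pair lay inside the range of 24 h, 186 to 261 CPM (-1.03 ± 0.25, edgeR adjusted p = 0.00213). With the unmapped share as a covariate both calls were lost, at -1.76 for Chac1 (adjusted p = 0.113) and -0.64 for Atf4 (adjusted p = 0.127). The unmapped share was 13.4% and 13.5% in the high pair and 9.18% and 8.97% in the low pair, and its part in the result was not tested.

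**Figure D2:**
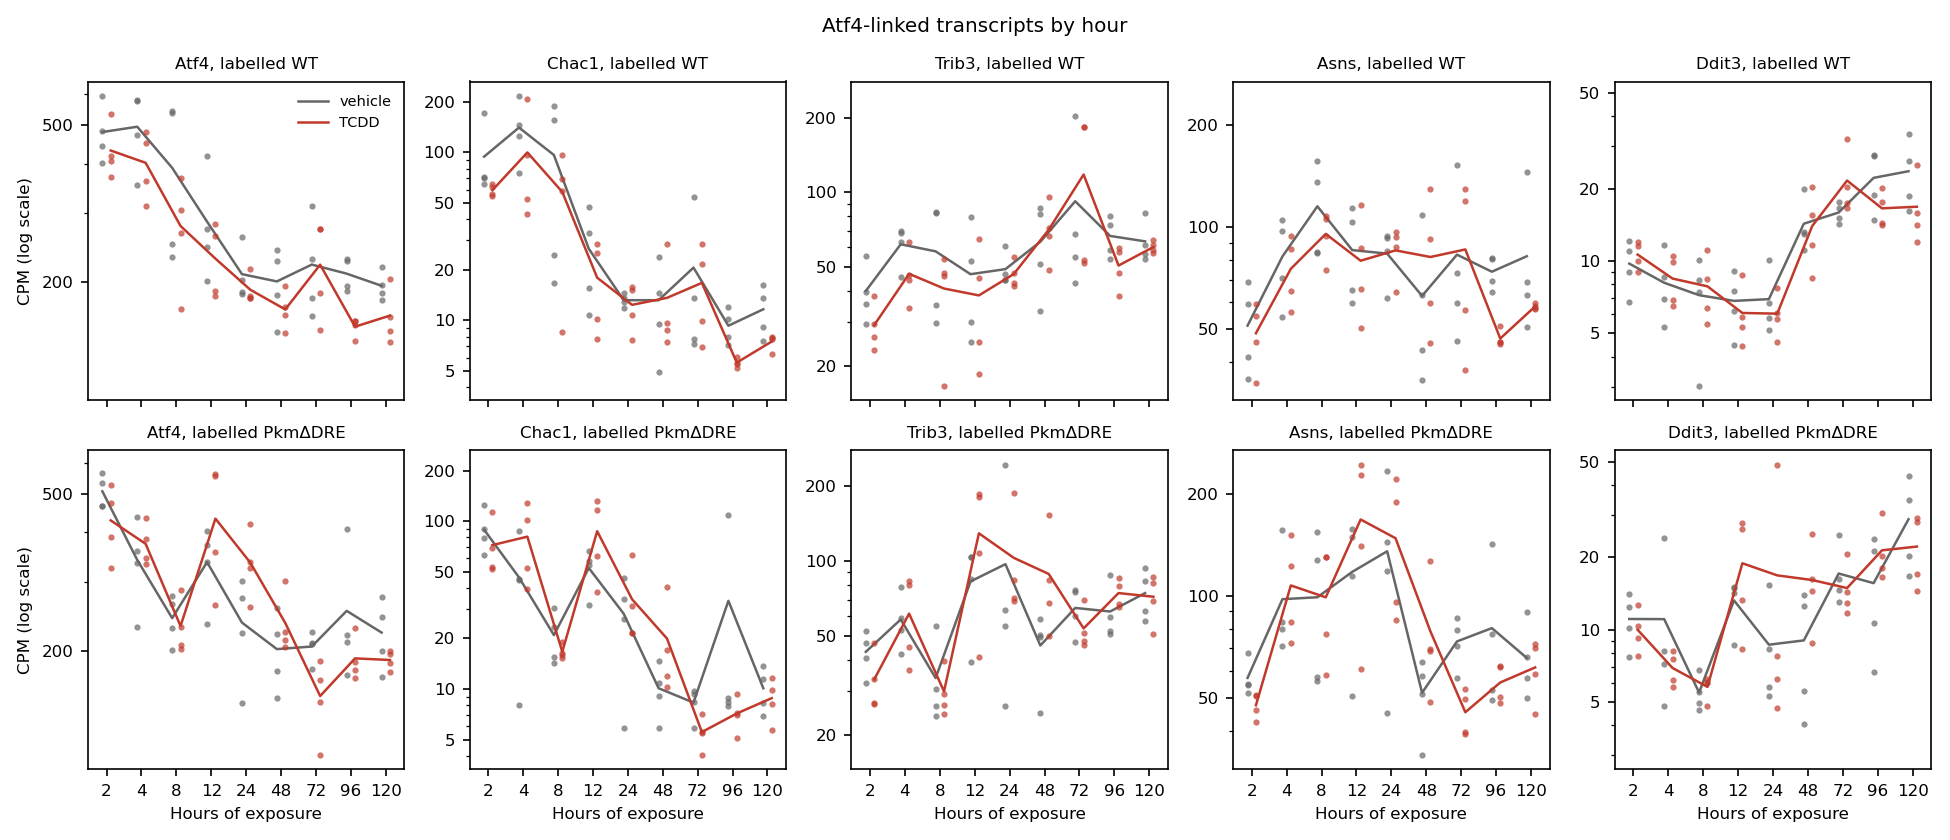
Level of Atf4, Chac1, Trib3, Asns and Ddit3 (CPM, log axis) against hours of exposure, drawn at even steps, with libraries labelled WT above and labelled PkmΔDRE below. Points are libraries (4 per group), lines join group means, grey is vehicle and red TCDD. Chac1 has the widest course, from a vehicle mean of 140.6 CPM at 4 h to 9.29 CPM at 96 h under label WT.

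Later changes under label WT were fewer. Ddit3 rose between 24 and 72 h, from 5.81, 5.19, 10.1 and 6.72 CPM to 15.1, 14.2, 16.7 and 17.7 CPM. The groups did not overlap (log2 fold change 1.14 ± 0.31, edgeR adjusted p = 0.00655). Herpud1 fell over the same step from 251 ± 25.7 to 141.6 ± 53.5 CPM (-0.89 ± 0.27, edgeR adjusted p = 0.0153), but library 28 with 219.9 CPM lay inside the range of 24 h, and the call was lost without library 26 or 27. These calls, 1 higher and 1 lower of 10 members, stand beside 10.4% of all genes called higher and 12.4% lower. Between 72 and 120 h no member was called by edgeR (1 of 10 at an unadjusted p under 0.05, 0 by DESeq2), beside 3.48% of all genes.

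Under label PkmΔDRE 3 members fell and none rose between 2 and 8 h, where 5.5% of the 15968 genes tested were called lower and 5.52% higher. Pdia4 held 289, 198, 231 and 280.5 CPM at 2 h and 95.9, 110, 89.1 and 63.2 CPM at 8 h, with no overlap (log2 fold change -1.52 ± 0.27, edgeR adjusted p = 0.000291). Atf4 held 466 to 566 CPM at 2 h and 202 to 275 CPM at 8 h, also without overlap (-1.11 ± 0.27, edgeR adjusted p = 0.0063). Chac1 went from 88.9 ± 25.9 to 20.95 ± 7.52 CPM (-2.13 ± 0.68, edgeR adjusted p = 0.0372), a call that was lost on leaving out any 1 of the 8 libraries of both hours. The chaperone Hspa5 was not called here, with 581, 1086, 759 and 1247 CPM at 2 h and 554, 962, 510 and 292 CPM at 8 h (-0.69, adjusted p = 0.31). Pdia4 rose again between 24 and 72 h from 65.1 ± 16.3 to 151 ± 32.3 CPM, without overlap (1.15 ± 0.27, edgeR adjusted p = 0.00912), the only member called over that step, where 4.18% of all genes were called higher and 4.56% lower. With only the libraries of these 2 hours in the fit it was 1.18, with an adjusted p of 0.054. No member was called by edgeR between 8 and 24 h or between 72 and 120 h (2 of 20 tests at an unadjusted p under 0.05, 1 by DESeq2, Trib3 between 8 and 24 h), beside 1.69% of all genes over both steps.

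The genes differed in how much of their spread time accounted for. Over all libraries, hours held 76.2% of the variance of Xbp1 on the log2 scale, 60.7% of that of Atf4, 60.2% of that of Chac1 and 57.9% of that of Pdia4. Herpud1 was least tied to the hour, at 13%, with 66.3% of its variance among libraries of the same group. Its highest vehicle group mean exceeded its lowest by 1.78-fold under label WT and 1.67-fold under label PkmΔDRE, whereas Chac1 spanned 15.1-fold and 10.7-fold. Asns and Trib3 also varied more within groups than between hours, with 52.8% and 51.8% of the variance within groups. So did Hspa5, with 46.2% within groups and 32.1% between hours, and, by little, Dnajb9, with 40.1% and 38.6%. Without the 6 libraries named above, hours held 81.8% for Xbp1, 63.7% for Atf4, 67.2% for Chac1, 57.7% for Pdia4 and 12.1% for Herpud1, and Herpud1 spanned 1.78-fold and 1.7-fold against 16.7-fold and 10.7-fold for Chac1. Within groups Asns then held 48.8% and Trib3 49.9%, still more than their shares between hours of 34.6% and 23.4%. Hspa5 held 40.1% within groups and 37.9% between hours, whereas for Dnajb9 the order turned, at 32.7% and 46.7%.

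The question asked of the TCDD-treated cultures was whether these genes responded beyond the change with time. Each hour was tested with the 4 TCDD and 4 vehicle libraries of 1 label. Under label WT, Hspa5 and Dnajb9 rose and Herpud1 fell at 8 h, where 23.8% of the 12392 genes tested were called higher and 13.6% lower. Dnajb9 rose and Asns and Chac1 fell at 96 h, where 10.1% of 13793 genes were called higher and 5% lower. The share of members called at 8 h, 2 of 10 higher and 1 of 10 lower, was near that of all genes. In the other 7 hours edgeR called none of the 10 members (5 of 70 tests at an unadjusted p under 0.05, 0 by DESeq2), beside 0.289% of all tests of genes.

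**Figure D3:**
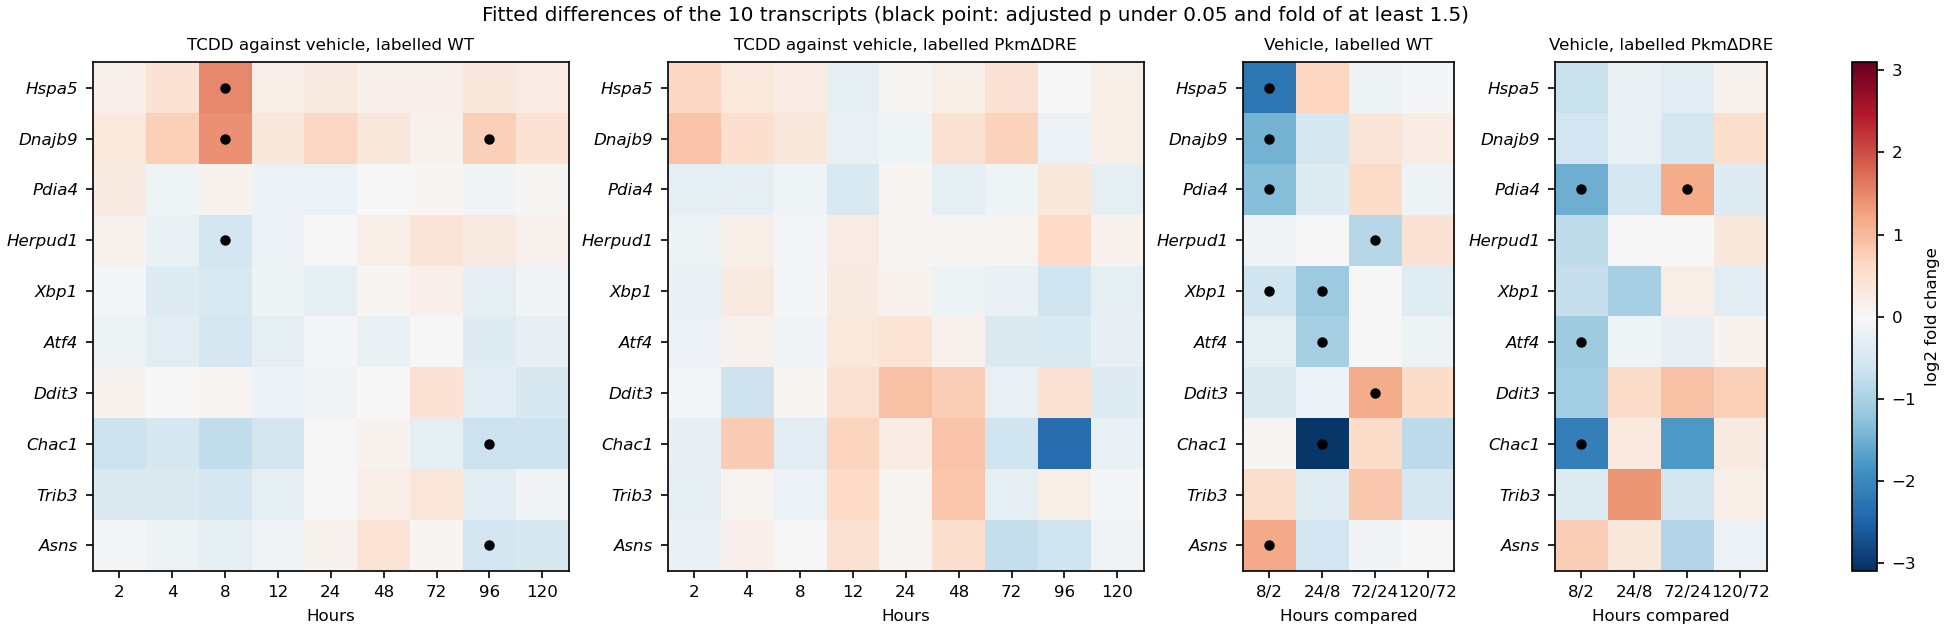
Fitted log2 fold changes of the 10 genes (colour), by hour for TCDD against vehicle in either label (the left pair of panels) and by step for vehicle-treated libraries (the right pair). Black points mark the tests called, 6 for TCDD under label WT, none for TCDD under label PkmΔDRE, 10 for time under label WT and 4 for time under label PkmΔDRE.

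At 8 h Hspa5 held 348, 356, 342 and 354 CPM with vehicle and 701, 985, 1683 and 702 CPM with TCDD under label WT. These vehicle libraries also formed the later hour of the step from 2 to 8 h, and their mean, 350.2 CPM, was the lowest of the vehicle hours under this label. The fall with time and the difference with TCDD at 8 h share this group, so they are not independent. Every TCDD library lay above every vehicle library, and library 47 was highest. The log2 fold change was 1.5 ± 0.24 (edgeR adjusted p = 0.00136), a 2.84-fold higher level. Dnajb9 had the same order of libraries, with 36.6, 32.1, 23.5 and 18.2 CPM with vehicle and 56.7, 66.1, 132.7 and 44.01 CPM with TCDD (1.41 ± 0.32, edgeR adjusted p = 0.00439). Both kept their calls on leaving out any 1 of the 8 libraries, at log2 fold changes of 1.15 to 1.65 for Hspa5 and 0.98 to 1.59 for Dnajb9. Herpud1 held 219.5, 235, 242 and 217 CPM with vehicle and 147, 161, 134.7 and 176 CPM with TCDD, again without overlap (-0.59 ± 0.13, edgeR adjusted p = 0.00305), but at a 1.51-fold lower level its call was lost without library 10, 11, 45 or 47.

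Technical measures moved with this comparison. Library 45, of the TCDD group, had 48.0% of its pairs on no gene, unmapped or mapped to several places, and the share of uniquely mapped pairs on no gene was 14.3% to 26.7% with TCDD against 12.0% to 13.5% with vehicle. Genes detected numbered 18337 to 20626 with TCDD and 15401 to 17203 with vehicle. Transcripts of Dnajb9 and Hspa5 have a GC content of 40.6% and 45.6%, that of Herpud1 53%. With each library's trend of counts on GC content removed, Hspa5 was 0.87 (adjusted p = 0.0109) and still called, Dnajb9 0.28 (adjusted p = 0.579) and Herpud1 -0.41 (adjusted p = 0.019), and neither of these was called. With 1 surrogate variable in a fit of the whole label none was called, with Hspa5 at 0.74 (adjusted p = 0.355), Dnajb9 at 0.63 (adjusted p = 0.577) and Herpud1 at -0.24 (adjusted p = 0.751). Macrophage markers, 5 genes, summed to 60.9 to 112.3 CPM with TCDD and 142.5 to 188 CPM with vehicle, and the 7 hepatocyte markers to 63208 to 69698 CPM with TCDD and 72166 to 86191 CPM with vehicle. The part of these measures and markers in the result was not tested.

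The transcription factors did not pass both thresholds at 8 h. Xbp1 was 316 ± 59.1 CPM with TCDD and 427 ± 79.5 with vehicle (-0.47, adjusted p = 0.0441), under the fold threshold. Atf4 was 278 ± 82.4 CPM with TCDD and 390.3 ± 172.4 with vehicle (-0.53, adjusted p = 0.167). Chac1 held 69.4, 58.8, 95.9 and 8.54 CPM with TCDD, inside the range of the split vehicle group (-0.77, adjusted p = 0.534).

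At 96 h the libraries labelled WT were closer to each other and smaller differences passed. Dnajb9 held 23.7, 22.1, 25.8 and 23.4 CPM with vehicle and 38.8, 40.9, 36.8 and 34.3 CPM with TCDD, without overlap (log2 fold change 0.73 ± 0.10, edgeR adjusted p = 0.000574). Asns held 69.3, 64.5, 80.6 and 81.03 CPM with vehicle and 45.1, 45.8, 51.2 and 45.8 CPM with TCDD, with all TCDD libraries lower (-0.59 ± 0.09, edgeR adjusted p = 0.000894). Chac1 was low in both, at 9.29 ± 2.17 CPM with vehicle and 5.599 ± 0.353 with TCDD (-0.67 ± 0.18, edgeR adjusted p = 0.0144). Atf4, at 210.4 ± 20.5 and 154 ± 8.61 CPM, did not overlap between treatments either and had a small adjusted p of 0.00474, but its log2 fold change of -0.39 did not reach the fold threshold. Hspa5 likewise stood at 0.34 (adjusted p = 0.0319).

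The calls at 96 h depended on the libraries and on the fit. Library 31, of the vehicle group, held 1717 CPM of Cyp1a1, more than the other vehicle libraries of that hour. This was still below the TCDD libraries of that hour and label, which held 4007 to 4578 CPM. Without library 31 Asns was -0.56 (adjusted p = 0.00248) and Chac1 -0.53 (adjusted p = 0.0414), both under the fold threshold. Dnajb9 remained called on leaving out any 1 library, at 0.69 to 0.76. In 1 fit of all libraries of the label no member was called at 96 h, with Dnajb9 at 0.68 (adjusted p = 0.488), Asns at -0.64 (adjusted p = 0.432) and Chac1 at -0.71 (adjusted p = 0.623). After removal of the GC trend Dnajb9 was 0.21 (adjusted p = 0.195) and Chac1 -0.45 (adjusted p = 0.095). With the share of uniquely mapped pairs on no gene as a covariate, Asns was -0.50 and Chac1 -0.48, neither called. With the unmapped share Asns was -0.56, under the fold threshold. The share on no gene was 14.8% to 17.6% with TCDD and 12.5% to 15.1% with vehicle, and its part in the result was not tested. Cholangiocyte markers, 4 genes, summed to 129.9 to 148 CPM with TCDD and 259 to 301 CPM with vehicle at that hour, and their part in the result was not tested.

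Mean levels of Hspa5 and Dnajb9 were higher with TCDD than with vehicle at 9 of 9 hours under label WT, and the mean of Atf4 was higher at none. Under label PkmΔDRE the mean was higher at 8 of 9 hours for Hspa5, 6 of 9 for Dnajb9 and 4 of 9 for Atf4. Without the 6 libraries named above these counts were 9, 9 and 1 under label WT and 8, 7 and 3 under label PkmΔDRE, in the same order. These are counts of means, and under label WT the groups of Hspa5 overlapped at every hour but 8 h. Hspa5 and Dnajb9 also deviated together within groups (Pearson r 0.88), so their counts are not independent. Xbp1 lay lower in all 4 TCDD libraries than in all vehicle libraries at 4, 24 and 96 h, at log2 fold changes of -0.41, -0.31 and -0.31, of which edgeR called none (adjusted p = 0.286, 0.356 and 0.0122). Dnajb9 lay higher in all 4 at 120 h, with 47.5, 46.3, 41.7 and 45.7 CPM against 34.6, 28.0, 36.4 and 33.98 (0.45, adjusted p = 0.0739). The share of all genes that kept the same direction over the hours, or separated fully at an hour, was not counted. Without libraries 21, 31 and 64 the TCDD comparisons under label WT gave 4 member calls in place of 6, and without library 40 they gave 6.

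Under label PkmΔDRE edgeR called no member in any of the 90 tests of 10 genes at 9 hours (8 at an unadjusted p under 0.05, 1 by DESeq2, Asns at 72 h), and 0.281% of all tests of genes were called. Hspa5 at 8 h held 554, 962, 510 and 292 CPM with vehicle and 484, 956, 628 and 668 CPM with TCDD. Both TCDD and vehicle libraries covered much the same range (log2 fold change 0.25, adjusted p = 1). At 2 h Dnajb9 was 48.95 ± 20.7 CPM with vehicle and 86.02 ± 35.1 with TCDD (0.89, adjusted p = 0.314). The largest fitted difference of the 90 was in Chac1 at 96 h, 33.5 ± 50.3 CPM with vehicle and 7.15 ± 1.72 with TCDD (-2.37, adjusted p = 0.663), which rested on vehicle replicate 4 with 109.01 CPM where the other 3 vehicle libraries held 7.87, 8.83 and 8.36 CPM. Without it the log2 fold change was -0.27 (adjusted p = 0.788). Leaving out library 97, a vehicle library of 72 h, gave 3 calls at that hour, Asns at -0.82 (adjusted p = 0.0152), Dnajb9 at 1.10 (adjusted p = 0.0423) and Hspa5 at 0.75 (adjusted p = 0.0428), in place of none.

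Whether the labels responded differently was asked by an interaction term, fitted to all 16 libraries at each hour. No member was called in the 90 tests by edgeR (1 at an unadjusted p under 0.05, 0 by DESeq2), and 0.0016% of all tests of genes were. For Hspa5 at 8 h the response under label PkmΔDRE was lower than under label WT by a log2 difference of -1.38 ± 0.45 (adjusted p = 0.292), and for Dnajb9 by -1.19 ± 0.57 (adjusted p = 0.316). Without the filter on low counts both passed, at -1.33 (adjusted p = 0.00277) and -1.13 (adjusted p = 0.0379). A p above the threshold does not show that the labels responded alike.

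In vehicle-treated libraries the labels themselves were compared hour by hour. None of 90 tests of members was called by edgeR (12 at an unadjusted p under 0.05), beside 0.407% of all tests of genes. No member was called either without library 80 and replicate 4 of 96 h. DESeq2 called Dnajb9 and Ddit3 at 12 h, and the edgeR values at that hour, label PkmΔDRE against WT, were 1.11 (adjusted p = 0.054) and 0.98 (adjusted p = 0.0777). The 4 libraries of Dnajb9 did not overlap at 12 h, at 57.02 ± 12.3 CPM under label PkmΔDRE and 27.1 ± 9.74 under label WT. Leaving out library 84, a vehicle library labelled PkmΔDRE of 8 h, brought Hspa5 at that hour to a call, at 0.94 (adjusted p = 0.0197).

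Further genes of both pathways were followed in 7 lists, 86 genes in all. At 8 h under label WT, 23 of the 86 were called higher and 11 lower with TCDD than with vehicle, near the 23.8% and 13.6% of all genes. At 96 h 6 were called higher and 8 lower, beside 10.1% and 5% of all genes, and the same counts, 6 and 8, were found without library 31. Medians over the lists' genes were -0.17 and -0.09 on the log2 scale, beside 0.00 and 0.01 for all genes tested.

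**Figure D4:**
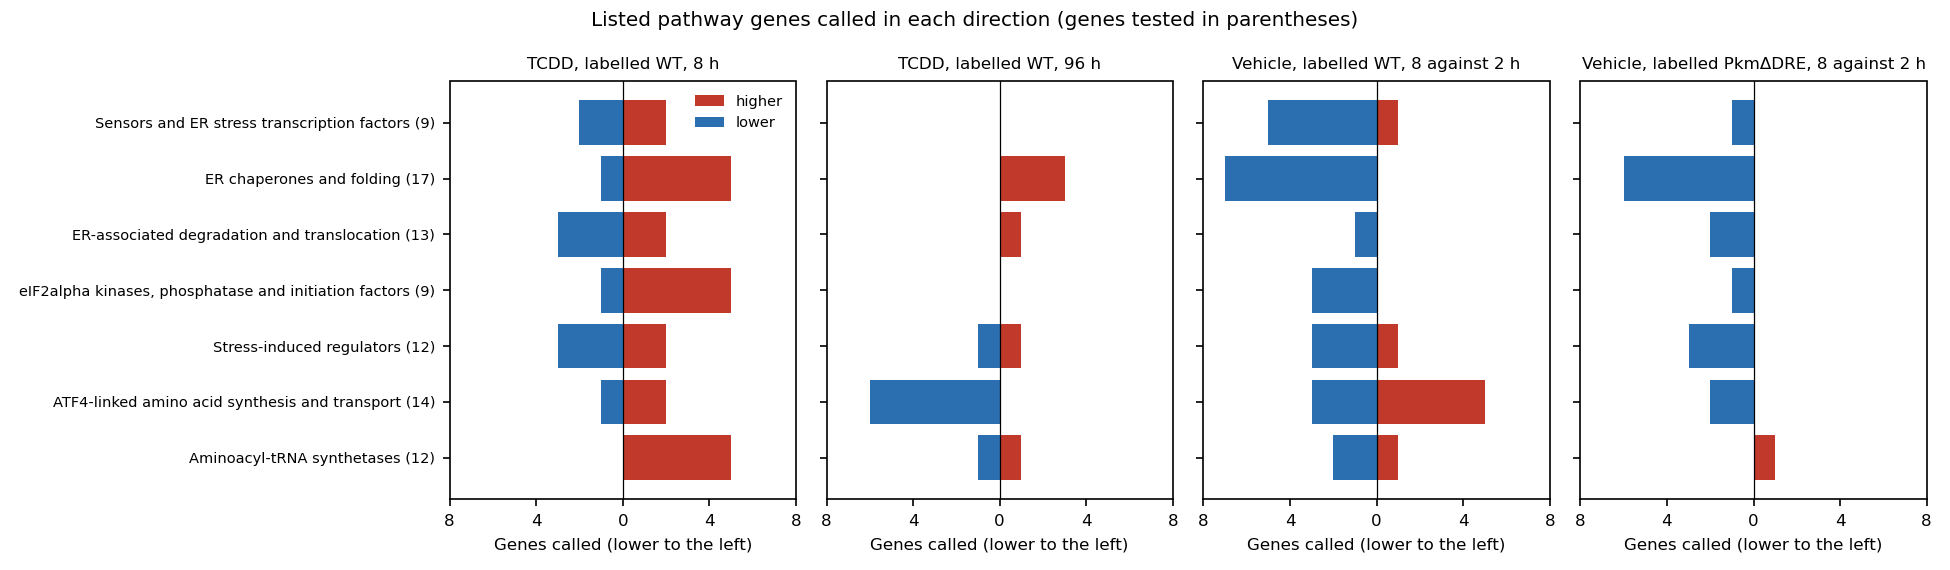
Number of listed genes called higher (to the right) and lower (to the left) in each of 7 lists, for TCDD at 8 h and at 96 h under label WT and for vehicle at 8 against 2 h under either label. Of the chaperone genes, 5 are called higher and 1 lower of 17 at 8 h of TCDD, and 7 of 17 lower between 2 and 8 h of vehicle under label WT. Both of these comparisons use the vehicle libraries of 8 h under label WT.

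ER chaperones and folding enzymes gave 5 higher and 1 lower of 17 at 8 h, beside 23.8% and 13.6% of all genes, which is the background of each list at that hour. Hsp90b1, the ER form of HSP90, went from 37.9 ± 3.77 CPM with vehicle to 128.2 ± 51.5 with TCDD (1.73 ± 0.24, edgeR adjusted p = 0.00105). The disulfide isomerase Pdia3 (1.17), the co-chaperone Dnajc3 (1.05) and the lectin chaperone Canx (1.58) also rose. At 96 h Hsp90b1 (0.73), Dnajc3 (0.63) and Canx (0.62) were again called, 3 of 17 higher and none lower, beside 10.1% and 5% of all genes. These 3 calls were lost after removal of the GC trend, at 0.30, 0.26 and 0.20, and in 1 fit of the whole label (adjusted p = 0.631, 0.353 and 0.538). That of Dnajc3 was also lost without library 29 or 65 and that of Canx without library 32 or 65. Ero1l, an oxidase of protein disulfide isomerase, was the fifth to rise (1.11), and Sil1, a nucleotide exchange factor of BiP, the one to fall (-0.72 ± 0.20, edgeR adjusted p = 0.0128). Both were named after their values were seen. The median of the list was -0.24 at 8 h and -0.13 at 96 h, below 0 although more genes were called higher than lower.

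Of the sensors and ER stress transcription factors, Atf6 (1.16) and Mbtps2 (1.38), the protease that releases ATF6, rose at 8 h, whereas Creb3l3 (-0.84) and Atf6b (-0.67) fell, 2 and 2 of 9. Genes around eIF2alpha gave 5 higher and 1 lower of 9. They included the kinase genes Eif2ak2 (1.42) and Eif2ak4 (1.16), the factor subunit Eif2s2 (1.49) and the phosphatase subunit Ppp1r15b (0.76). Of 12 aminoacyl-tRNA synthetases, which charge tRNAs, 5 rose and none fell, with a list median of -0.16, among them Eprs (1.39), Lars (1.36), Tars (1.25) and Nars (1.05). ER-associated degradation was split, with Edem3 (1.68) and Ubxn4 (1.45) higher and Edem2 (-0.72), Derl1 (-0.61) and Sec61b (-0.75), a translocon subunit, lower of 13. The median GC content was 43.9% in the 23 listed genes that rose at 8 h and 56.3% in the 11 that fell. After removal of the GC trend the calls at 8 h of Dnajc3, Atf6, Mbtps2, Creb3l3, Atf6b, Eif2ak2, Eif2s2, Ppp1r15b and Edem2 were lost, at 0.24 for Dnajc3, 0.57 for Atf6 (adjusted p = 0.0589), 0.32 for Mbtps2 (adjusted p = 0.287), -0.47 for Creb3l3 and -0.19 for Atf6b. With 1 surrogate variable Hsp90b1 at 8 h turned to -1.03, Edem3 to -0.79, Eprs to -0.88, Eif2ak2 to -1.50, Eif2s2 to -0.42 and Mbtps2 to -0.34.

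The list of amino acid synthesis and transport linked to ATF4 was called lower in 6 and higher in none of 14 at 96 h under label WT, where 5% of all genes were called lower and 10.1% higher, beside the falls of Asns and Chac1. Phgdh, the first enzyme of serine synthesis, went from 97.6 ± 9.24 CPM with vehicle to 44.02 ± 6.22 with TCDD (-1.09 ± 0.11, edgeR adjusted p = 0.000187). The amino acid transporter Slc7a5 (-1.05), the proline pathway enzyme Aldh18a1 (-0.81) and the serine pathway enzyme Psat1 (-0.64) fell as well. All 4 kept their calls on leaving out any 1 library, and all 4 lost them in 1 fit of the whole label, at -1.13 (adjusted p = 0.126) for Phgdh, -1.09 (0.128) for Slc7a5, -0.86 (0.164) for Aldh18a1 and -0.68 (0.249) for Psat1. Psat1 also fell under the fold threshold with the share on no gene (-0.53) or the unmapped share (-0.56) as a covariate. The median of the list at 96 h was -0.46. Vldlr, the very low density lipoprotein receptor, among the stress-induced regulators, was called higher at 8, 24, 96 and 120 h under label WT, at log2 fold changes of 1.77, 2.30, 1.49 and 1.31, and at 48 h under label PkmΔDRE, at 2.77. Its call at 24 h was lost on leaving out any of 7 of the 8 libraries, and all 4 calls under label WT were lost in 1 fit of the whole label (adjusted p = 0.0568, 0.336, 0.351 and 0.802 in the order of the hours). That under label PkmΔDRE was lost with the unmapped share as a covariate (3.49, adjusted p = 0.964). In the main fits Vldlr was the only listed gene called under label PkmΔDRE, where edgeR called 1 of 770 tests of listed genes. Other settings called more, most of all a block of libraries numbered alike, as given in the closing section.

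Between 2 and 8 h of vehicle under label WT, 8 listed genes rose and 24 fell of 86, beside 15.9% and 16% of all genes, with a median of -0.18 (0.00 for all genes). Ern1, which encodes IRE1, fell from 453 ± 56.9 to 106.6 ± 42.2 CPM (-2.07 ± 0.25, edgeR adjusted p = 9.93e-08), and under label PkmΔDRE from 462 ± 24.4 to 123.5 ± 25.5 CPM (-1.94 ± 0.42, edgeR adjusted p = 0.00204). Chaperone genes fell in 7 of 17 under label WT and 6 of 17 under label PkmΔDRE, beside 16% and 5.5% of all genes, and none rose. Atf3, a stress-induced transcription factor, and Gadd45a, a growth arrest gene, fell under both labels, by 1.85 and 3.16 on the log2 scale under label WT and by 2.25 and 2.61 under label PkmΔDRE. The stress-induced regulators gave 1 higher and 3 lower of 12 under label WT, and 0 and 3 under label PkmΔDRE. Under label WT Phgdh rose by 2.08 over the same step while the transporters Slc7a1 and Slc38a2 fell by 1.65 and 1.5. Their list, of amino acid synthesis and transport, gave 5 higher and 3 lower of 14 there, with a median of 0.53.

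Libraries of the same group differed from each other in a patterned way. For each library the log2 CPM of a gene was set against the mean of its own group, so that label, treatment and hour were removed, and these deviations were compared between genes over all libraries. Hspa5 and Dnajb9 deviated together (Pearson r 0.88, Spearman rho 0.87, and r 0.87 without the 2 libraries farthest in the deviation of Dnajb9). Atf4 and Chac1 also did (r 0.84, rho 0.83, and r 0.83 without the 2 farthest), and all 6 pairs among Atf4, Trib3, Asns and Chac1 lay between 0.63 and 0.84. Xbp1 also went with them, at r 0.65 with Atf4, 0.59 with Chac1, 0.52 with Asns and 0.51 with Trib3. Pairs that set Hspa5 or Dnajb9 against these 4 genes lay between -0.37 and 0.15. Hspa5 went against Xbp1 (r -0.45, rho -0.50) and against Herpud1 (r -0.42, rho -0.39). The pattern did not cover all members. Pdia4 stood at r -0.06 with Hspa5, -0.24 with Dnajb9 and 0.06 with Atf4. Ddit3 stood at 0.31 with Atf4, 0.22 with Chac1, 0.26 with Asns, 0.40 with Trib3 and 0.04 with Hspa5.

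**Figure D5:**
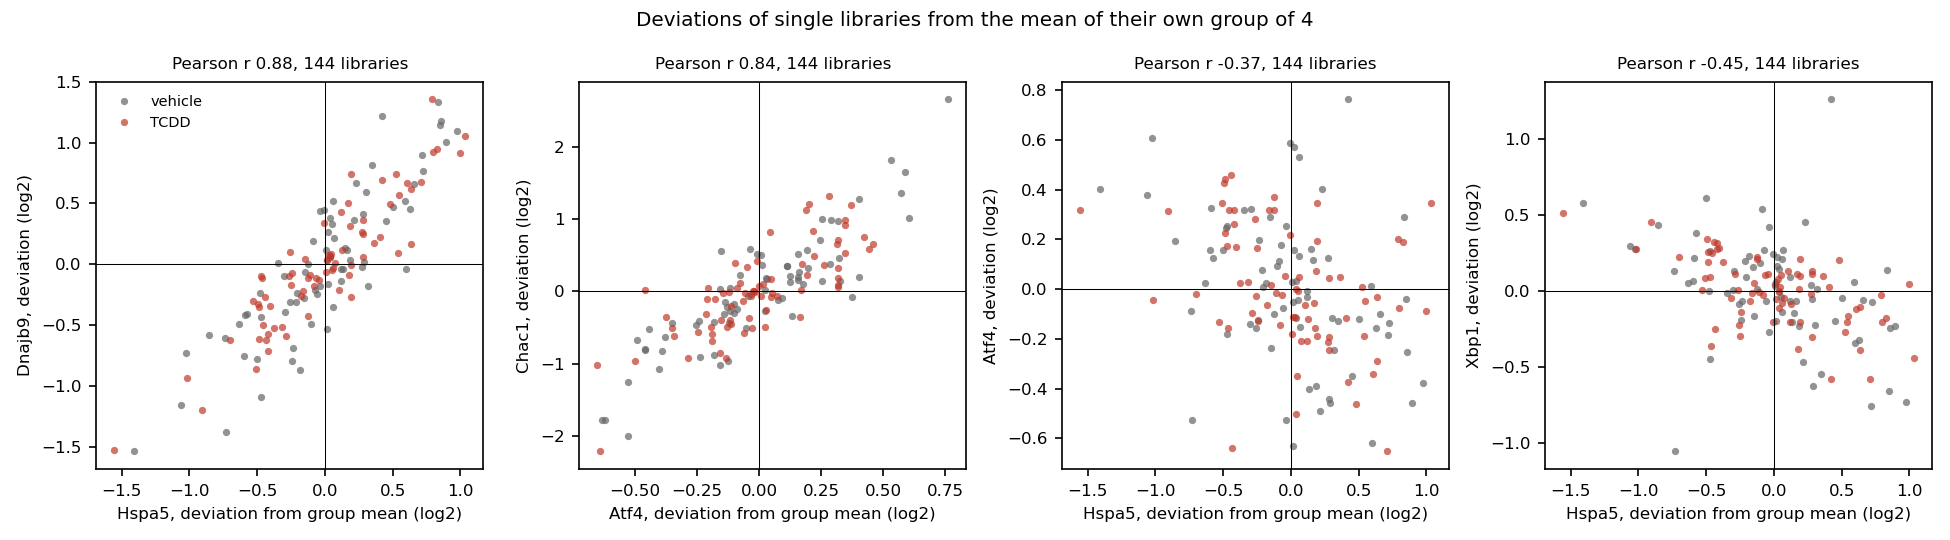
Deviation of each library from the mean of its own group of 4, on the log2 scale, for Dnajb9 against Hspa5, Chac1 against Atf4, Atf4 against Hspa5 and Xbp1 against Hspa5. Points are libraries, grey for vehicle and red for TCDD. The first pair of panels rises along a line (r 0.88 and 0.84), and the points of the other panels slope down (r -0.37 and -0.45).

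The pattern held within each label and treatment, with r between 0.87 and 0.91 for Hspa5 and Dnajb9 and between 0.79 and 0.88 for Atf4 and Chac1 in the 72 libraries of a label or a treatment. Without the 6 libraries named at the outset, r was 0.88 for Hspa5 and Dnajb9, 0.83 for Atf4 and Chac1, -0.65 for Hspa5 and Xbp1 and -0.45 for Hspa5 and Herpud1. The 6 pairs among Atf4, Trib3, Asns and Chac1 then lay between 0.59 and 0.86. Pairs of Hspa5 or Dnajb9 with these genes lay between -0.47 and -0.01. These values describe libraries that share their scaling and base composition, and no test was made of them. The deviations of Atf4, Trib3, Asns, Chac1 and Xbp1 went against those of the share of uniquely mapped pairs on no gene (r -0.28 to -0.39), those of Hspa5 and Dnajb9 were 0.13 and 0.10. With the unmapped share the signs were turned, at 0.23 to 0.34 for these 5 genes and -0.24 and -0.18 for Hspa5 and Dnajb9, and the part of both shares in the pattern was not tested. In library 27, an example chosen after its values were seen (labelled WT, vehicle, 72 h), Trib3 stood at 203 CPM, Asns at 152 and Chac1 at 53.9, where the other 3 libraries of its group held at most 67.9, 73.4 and 13.5, and Hspa5, at 591 CPM, lay inside their range of 513 to 646.

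The genes whose group means over the 36 groups were most like those of Hspa5, among 8041 genes with a mean of at least 10 CPM, were Fnip2 (r 0.94), Lman1 (0.926), Isoc1 (0.923) and Itprid2 (0.909). For Trib3 they were Cbx2 (0.846), Ccdc85c (0.807), Rit1 (0.792) and Slc1a4 (0.787). Among the members themselves, Chac1 was the most like Atf4 (r 0.967 over the 36 group means) and Dnajb9 the most like Hspa5 (0.847). Without the 6 libraries named above these values were 0.952, 0.933, 0.935 and 0.927 for the genes like Hspa5, 0.847, 0.813, 0.796 and 0.785 for those like Trib3, and 0.969 and 0.857 for the pairs of members, in the order given. Genes that deviated together within groups need not share a course over the group means. Over all libraries, r of the group means was -0.188 for Trib3 with Atf4 and -0.187 for Trib3 with Chac1. Asns stood at 0.231 with Atf4, 0.323 with Chac1 and 0.363 with Trib3. Xbp1 stood at 0.872 with Atf4 and 0.842 with Chac1.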

How the data were processed

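RNA-Seq counts of primary hepatocyte libraries were analysed, 4 in each of 36 groups of label, treatment and hour taken from the sample labels. The authors trimmed reads with Trimmomatic 0.39, checked them with FastQC 0.11.3 and aligned them with STAR 2.7 to GRCm39, and deposited whole-number counts per gene, of which the unstranded column was used. The submitters' notes also name DESeq2. Lines that name no gene held 16.77% to 48.01% of read pairs and were left out of library sizes. Libraries held 13588848 to 30719161 counts assigned to genes, and no pair of libraries of a group was alike within sampling noise.

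Genes with low counts were removed with filterByExpr (minimum count 10, minimum total 15), libraries were scaled by TMM, and the quasi-likelihood test of edgeR 4.0.16 in R 4.3.3 was run over all genes left, with Benjamini-Hochberg adjustment. Genes were called where the adjusted p was under 0.05 and the level differed by 1.5-fold or more. TCDD was tested against vehicle in the 8 libraries of a label and hour, time steps in the 36 vehicle libraries of a label, labels in the 8 vehicle libraries of an hour and the difference in response in its 16 libraries. Printed CPM use TMM sizes over all libraries. The test code was run on simulated counts with known changes and the same dispersion for every gene. These counts held no GC trend, exchanged libraries or pairing, so the run cannot show how such features move calls. Alternatives included DESeq2 1.42.0 and surrogate variables with sva 3.50.0. Libraries, and replicates within a group, are numbered in accession order, which is only a name.

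The text names all 10 members, up to 4 called genes by smallest p for each list and comparison, 4 genes most like Hspa5 and Trib3 in their group means, and Cyp1a1 and Pkm as checks of the labels. Members and lists were chosen with earlier results of these data known. Promoter sequences come from RefSeq, build GRCm38.p6, whereas the counts were made on GRCm39, so no coordinate was joined to a count.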

Additional observations from a re-analysis of the deposited data

Results flagged for a closer look

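In each of 360 groups of 4 libraries, 1 for each gene, label, treatment and hour, the gap from the highest or lowest library to its nearest neighbour was set against the group's range. In 22 groups it exceeded the 95% critical value of Dixon's test, and chance alone would flag about 5% of groups. No cause was tested for any of these libraries.

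Under label WT the libraries that stood apart were high in 12 groups and low in 1. With vehicle, Chac1 was 170.7 CPM in library 4 (2 h; others 65.09 to 71.47) and 53.89 CPM in library 27 (72 h; others 7.246 to 13.54), Trib3 was 60.89 CPM in library 19 (24 h) and 202.5 CPM in library 27 (72 h; others 43.17 to 67.94), and Xbp1 was 248.9 CPM in library 20 (24 h). With TCDD, Xbp1 was 875.9 CPM in library 40 (2 h; others 532.5 to 569.6), Dnajb9 was 198.1 CPM in library 43 (4 h) and 44.4 CPM in library 55 (24 h), and Atf4 was 215.8 CPM in library 56 (24 h). Chac1 was 28.52 CPM in library 57 (48 h) and, as the low one, 6.333 CPM in library 70 (120 h), Asns was 51.17 CPM in library 67 (96 h) and Herpud1 was 350.5 CPM in library 71 (120 h; others 163.2 to 166.6).

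Under label PkmΔDRE replicate 4 of the vehicle group at 96 h stood apart in Chac1 at 109.01 CPM (others 7.868 to 8.833) and in Xbp1 at 675.7 CPM (others 181.8 to 246.5). Replicate 2 of the TCDD group at 24 h did so in Ddit3 at 48.57 CPM (others 4.733 to 7.759) and in Trib3 at 188.3 CPM (others 69.12 to 83.56). The other flags there were Asns at 156.0 CPM in library 79 (vehicle, 4 h), Dnajb9 at 66.12 CPM in library 82 (vehicle, 8 h) and 50.06 CPM in replicate 3 of the TCDD group at 72 h, Hspa5 at 1113 CPM in replicate 2 of the TCDD group at 96 h, and Ddit3 at 8.675 CPM in library 86 (vehicle, 12 h), which was low.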

How the results depend on the processing

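Counts of called members moved by more than 1.5 times in these settings. For TCDD under label WT, 6 calls became 10 with no fold threshold, 0 with 1 surrogate variable and 3 after removal of the GC trend. For TCDD under label PkmΔDRE, 0 calls became 1 in 1 fit per label, 1 with a surrogate variable, 1 with DESeq2 and 1 after removal of the GC trend. For the label difference, 0 became 2 with DESeq2 and 3 without the filter on low counts, and for the difference in response 0 became 2 without that filter. Calls among listed genes for TCDD under label WT, 50, became 88 with no fold threshold, 1 with a surrogate variable and 28 after removal of the GC trend. Under label PkmΔDRE, 1 became 3 in 1 fit per label, 8 with a surrogate variable, 10 with DESeq2, 3 after removal of the GC trend, 14 without the filter and 3 with a covariate for read pairs on no gene. The replicate block given below also moved the member and listed counts for TCDD under label PkmΔDRE by more than 1.5 times. For time steps under label PkmΔDRE, 27 became 43 with DESeq2. The cause was not tested.

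With 1 surrogate variable 9 listed values changed sign, at 8 h Edem3 to -0.79, Eif2ak2 to -1.50, Eif2s2 to -0.42, Eprs to -0.88, Hsp90b1 to -1.03 and Mbtps2 to -0.34, and at 96 h Edem3 to -0.31, Eprs to -0.33 and Hsp90b1 to -0.46.

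On leaving out 1 library at a time, member calls ran from 4 to 6 for TCDD and 9 to 10 for time steps under label WT, from 0 to 3 and 3 to 7 under label PkmΔDRE, from 0 to 1 for the label difference and from 0 to 0 for the difference in response. Calls of listed genes ran from 43 to 60 and 62 to 82 under label WT and from 1 to 17 and 20 to 34 under label PkmΔDRE. The largest of these moves came without library 97 (3 member calls for TCDD) and without library 91 (7 for time steps). Leaving out library 80 together with replicate 4 of the vehicle group labelled PkmΔDRE at 96 h, or library 40 alone, chosen after seeing the data, kept the member counts at 0 and 6. The summaries without 6 libraries, and the listed counts without library 31, were also chosen after seeing the data.

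Replicate numbers only follow accession order, and no label pairs the libraries. As a hint from the data, the mean same-numbered correlation was 0.022 to 0.581 over 18 comparisons, all 4 exceeded 0.1 in 5 of them, 8 h under label WT among these, and 41 of 72 libraries correlated best with their own number. With these numbers as a replicate block, member calls were 7 and 1 for TCDD under labels WT and PkmΔDRE, 10 and 4 for time steps, 0 for the label difference and 0 for the difference in response, and calls of listed genes were 54 and 30 for TCDD and 77 and 29 for time steps.

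Chac1 and Ddit3 had the fewest counts of the 10 genes, and 4 libraries per group limit every test.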
